A study of Mus musculus with 4 samples.

Results

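The MYC, MAX and MXD network was followed in mouse embryonic stem cells in which the level of FBL had been lowered. FBL (fibrillarin) is the methyltransferase that box C/D small nucleolar RNAs guide to sites in ribosomal RNA. The network was read through its 10 genes Myc, Mycn, Mycl, Max, Mxd1, Mxd3, Mxd4, Mxi1, Mnt and Mga. A probe was taken as a member when the RefSeq transcript it was designed on belongs to one of these genes, without regard to its value, which gave 16 of the 41174 probes on the array. They read 10 of the 17016 genes that the gene table names there, 6 genes by 1 probe, Mycn and Mxd3 by 2, and Myc and Mga by 3. Messenger RNA was measured on 4 one-colour Agilent arrays, 1 per sample. The 2 knock-down samples were ES cells with a Tc-inducible FBL knock-down, kept without tetracycline (Tc) for 2 days. The 2 control samples were the same cells kept with 1000 ng/mL Tc for 2 days, and all samples were grown with leukaemia inhibitory factor (LIF) on gelatin. FBL level and Tc changed together in this design, so their effects cannot be told apart. Separate cultures behind the samples of a group are not named in the labels, so the p-values measure the spread between these samples only, which may be technical.

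MYC proteins are transcription factors of the basic helix-loop-helix leucine zipper class that bind DNA only as a pair with MAX, at the E-box CACGTG, and activate genes of growth, metabolism and ribosome production. The MXD proteins, MNT and MGA compete for the same partner and the same site and recruit repressor complexes. In mouse ES cells MYC and MYCN sustain proliferation and self-renewal, Myc transcription is a known target of LIF and STAT3, and MGA silences germline genes as part of the polycomb complex PRC1.6.

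Values are log2 signals with each array's 75th percentile at 0, as the authors deposited them. Fbl, the targeted gene, lay at 5.98 and 5.94 in knock-down samples 1 and 2, against 8.63 and 8.12 in controls 1 and 2. This is a 5.32-fold fall (log2 change −2.41 ± 0.25 SE, limma adjusted p = 5.50e-04, n = 2 per group). Between 24501 and 26410 probes were well above background per array. All 11 ES cell markers with a probe were well above background on all arrays, Pou5f1, Nanog and Sox2 among them. Their summed linear level relative to the 75th percentile was 900 to 1172 in knock-down samples and 902 to 1088 in controls, and without the brightest, Dppa5a, 313 to 315 in knock-down samples and 382 to 392 in controls. Of these 11 markers 6 lay below the controls and 2 above, with a median change of −0.34. Over all genes, by the brightest tested probe of each, 30.3% lay below and 20.9% above without overlap. Changes of Pou5f1, Nanog and Sox2 were −0.06, −0.82 and 0.29, and none of them passed (limma adjusted p = 0.0625 for Nanog). The summed level of 12 fibroblast markers was 4.68 to 5.08 in knock-down samples and 5.29 to 8.20 in controls, and without Thy1 1.75 to 1.90 in knock-down samples and 1.19 to 1.79 in controls. Thy1 was the 1 of 6 tested fibroblast markers with a change below 0 (median 0.24, none passed), and Pdgfra, Dcn, Postn and Col3a1 were above background on no array. The sum of 11 primitive endoderm markers was 2.36 to 2.38 in knock-down samples and 3.42 to 4.16 in controls (without Lama1, 1.28 to 1.29 in knock-down samples and 1.34 to 1.87 in controls). That of 10 trophectoderm markers was 30.6 to 33.9 in knock-down samples and 20.8 to 26.3 in controls, and without Tfap2c the groups overlapped, at 9.47 to 9.97 in knock-down samples and 9.11 to 12.4 in controls. The part of these shifts in the results below was not tested. Differences between the arrays of a pair had a standard deviation over the tested probes of 0.31 in the knock-down pair and 0.52 in the control pair. In bulk RNA, fewer cells with a transcript and less of it per cell cannot be told apart.

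Of the 16 member probes 15 were well above background on all 4 arrays and entered the test. The 1 left out reads Mga and was not well above background on any array. After limma with Benjamini-Hochberg adjustment over all 25101 probes tested, 2 member probes fell, both of Myc, and 1 rose, that of Mxd4, while 12 did not pass. Over all probes tested 6.08% passed, 3.65% upwards and 2.43% downwards. The 2 groups did not overlap for 9 of the 15 member probes, 4 with the knock-down samples above and 5 with them below, where 51.4% of all probes tested did not overlap, 20.8% with the knock-down samples above and 30.6% below. The median change of the 15 probes was −0.19, and that of all probes tested was −0.06.

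**Figure D1:**
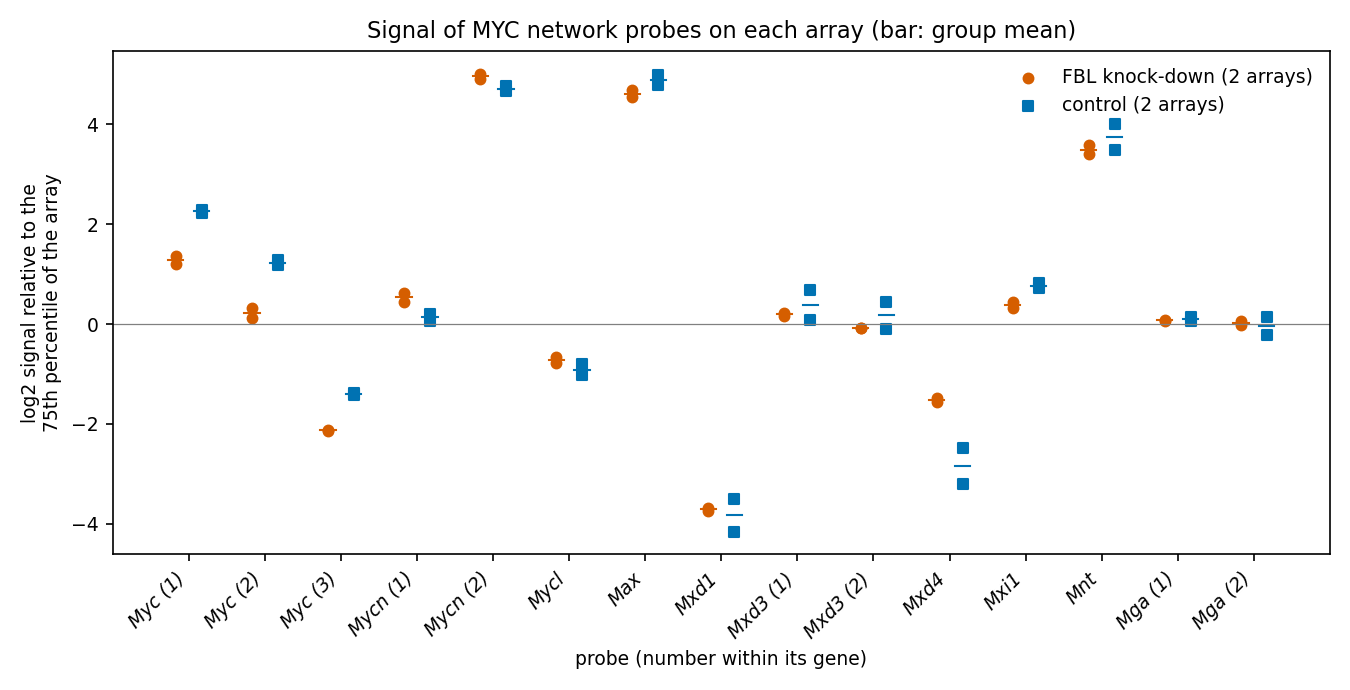
Signal of the 15 tested probes on each array, as log2 with each array's 75th percentile at 0, with knock-down arrays as orange circles left of control arrays as blue squares and a bar at each group mean. The Myc probes lie lower in both knock-down samples, the Mxd4 probe lies higher in both, and the controls of Mxd1, Mxd3, Mxd4 and Mnt lie apart from each other. Heights are not comparable between probes.

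Myc, which encodes the c-MYC activator, was read by 3 probes designed on the transcript NM_010849. Probe A_51_P102096, printed as 10 spots on each array, had 1.36 and 1.20 in knock-down samples, against 2.28 and 2.23 in controls. Both knock-down samples were lower than both controls by more than either pair differed within itself. Its level fell 1.97-fold (log2 change −0.98 ± 0.22 SE, limma adjusted p = 0.0311). The standard deviation over its 10 spots was 0.07 and 0.09 log2 on the knock-down arrays and 0.07 and 0.06 on the control arrays, which is the spread within an array and not that between samples.

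The second Myc probe, A_52_P108346, gave 0.33 and 0.12 in knock-down samples, against 1.28 and 1.18 in controls. It fell 2.01-fold (−1.01 ± 0.23 SE, limma adjusted p = 0.0289), which is within the error of the first. The third probe, A_52_P278549, was dimmer and had −2.12 and −2.15 in knock-down samples, against −1.42 and −1.38 in controls. Its change of −0.73 ± 0.22 had the same direction with groups apart, and it did not pass (adjusted p = 0.0895). With background correction by normexp the change of this dim probe was −0.22, while the other probes of Myc kept −0.94 and −1.01.

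Both Myc calls ended once the slide was a block. This model compares the 3 arrays of slide 1 and leaves knock-down 2, alone on slide 2, without weight. The changes there were −0.90 for each probe (adjusted p = 0.647 and 0.642). They also ended without knock-down 1 (−1.06 and −1.11, adjusted p = 0.288 and 0.231). The sizes stayed within 1.5 times of the reported ones in both fits, which leave 1 knock-down array. Both fits gave all probes 1 shared error, so these p-values do not reflect the spread of Myc itself.

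Mycn, which encodes N-MYC, was read by 2 probes. Probe A_51_P497332 had 0.63 and 0.43 in knock-down samples, against 0.20 and 0.07 in controls. Probe A_52_P536494 had 5.02 and 4.90 in knock-down samples, against 4.77 and 4.66 in controls. At both probes the knock-down samples lay above the controls without overlap, and neither passed limma (0.40 with a 95% interval of −0.11 to 0.90, adjusted p = 0.377, and 0.25 with −0.25 to 0.74, adjusted p = 0.606).

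Mycl, which encodes L-MYC, had −0.78 and −0.65 in knock-down samples, against −0.81 and −1.01 in controls. The knock-down samples lay just above the controls, and the change of 0.20 did not pass (95% interval −0.31 to 0.70, limma adjusted p = 0.699). Neither Mycn nor Mycl had a lower value in a knock-down sample than in a control, whereas all 3 Myc probes did in every pairing of arrays.

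A difference between probes taken within each array does not depend on how arrays are scaled. With the mean of the controls set to 0, the log2 difference of Mycn probe A_51_P497332 minus Myc probe A_51_P102096 was 1.39 and 1.36 in knock-down samples, against 0.04 and −0.04 in controls. For Mycn probe A_52_P536494 it was 1.20 and 1.25 in knock-down samples, against 0.03 and −0.03 in controls. For Mycl it was 1.03 and 1.32 in knock-down samples, against 0.08 and −0.08 in controls. The ratio of each of these paralog probes to Myc was thus higher in both knock-down samples than in both controls. This shows unequal change and not that any one of them was constant. It is not particular to the paralogs, as every other tested member probe outside Myc had a higher ratio too. For Max the difference was 0.70 and 0.71 in knock-down samples, against 0.07 and −0.07 in controls.

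Max, the common partner of the MYC and MXD proteins, had 4.69 and 4.54 in knock-down samples, against 4.99 and 4.79 in controls. The knock-down samples lay just below the controls, and the change of −0.27 did not pass (95% interval −0.78 to 0.24, limma adjusted p = 0.571). Relative to Max within each array, with the control mean at 0, the Myc probe A_51_P102096 stood at −0.70 and −0.71 in knock-down samples, against −0.07 and 0.07 in controls.

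**Figure D2:**
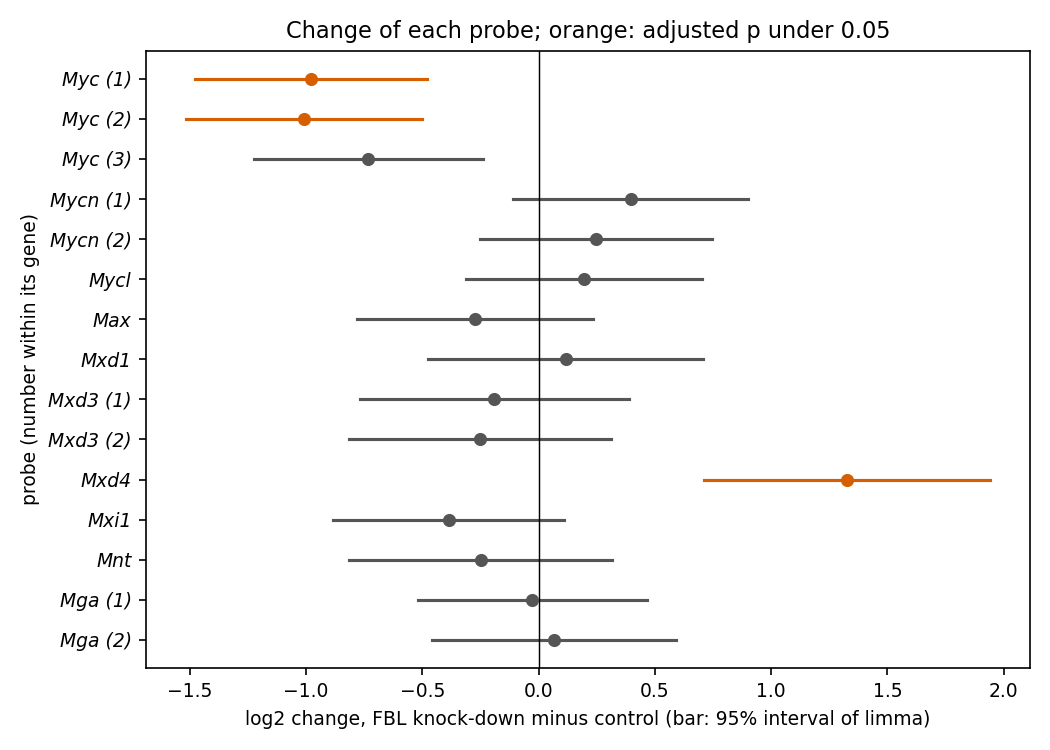
Log2 change of each tested probe, knock-down minus control, with the 95% interval of limma as a bar and probes with an adjusted p under 0.05 in orange. The intervals of Mxd4 and of all 3 Myc probes exclude 0, and those of the other 11 probes include it.

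Of the 5 MXD probes that of Mxd4 passed and the other four did not. Mxd4, which encodes the MAD4 repressor first described in differentiating cells, was read by probe A_51_P148865. It had −1.56 and −1.48 in knock-down samples, against −2.48 and −3.21 in controls. Both knock-down samples were higher than both controls, and the controls lay 0.72 apart while the knock-down samples lay 0.08 apart. Mxd4 rose 2.51-fold (log2 change 1.33 ± 0.27 SE, limma adjusted p = 0.0201). Under normexp the change was 0.83 (adjusted p = 0.0126), and without control 1 or control 2 it was 1.69 or 0.96. The normexp fit gave all probes the same error of 0.23, so this p does not reflect the gap between the controls of Mxd4. The call ended with the slide as a block (1.29, adjusted p = 0.134) and without knock-down 1 (1.36, adjusted p = 0.0675).

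The 250 bases before the start of Mxd4 are shown because they hold the E-box that the network binds, 219 bases before the start. They are set beside those of Mnt, the other member searched that has this site, 123 bases before its start. Both are from RefSeq on GRCm38.p6, written 5′ to 3′ along the gene, with CACGTG in capitals.
Mxd4, chr5:34187711-34187960, minus strand: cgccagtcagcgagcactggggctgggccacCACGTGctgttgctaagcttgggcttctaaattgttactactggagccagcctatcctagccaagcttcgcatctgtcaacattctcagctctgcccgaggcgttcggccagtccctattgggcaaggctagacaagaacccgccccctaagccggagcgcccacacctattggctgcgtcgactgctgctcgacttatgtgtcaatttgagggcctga
Mnt, chr11:74830674-74830923, plus strand: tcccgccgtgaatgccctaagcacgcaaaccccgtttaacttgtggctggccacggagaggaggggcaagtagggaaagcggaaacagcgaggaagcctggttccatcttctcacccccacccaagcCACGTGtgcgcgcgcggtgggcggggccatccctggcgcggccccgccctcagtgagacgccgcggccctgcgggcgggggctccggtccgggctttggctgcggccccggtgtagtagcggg
The site CACGTG reads the same on both strands and was found in 2 of 11 such windows and in 6.02% of all 32851 windows. The 11 windows belong to 9 of the 10 member genes, as none was available for Myc, which was not searched. The variant CACGCG, searched on both strands, was found in 2 of the 11, those of Mycl and Mga, and in 7.62% of all windows. A match describes the letters and not a bound site, and of these 4 genes Mxd4 alone passed the test of expression.

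Mxi1, which encodes another MXD repressor and antagonises MYC in growth, had 0.44 and 0.33 in knock-down samples, against 0.82 and 0.72 in controls. The groups did not overlap, and the change of −0.39, opposite in sign to that of Mxd4, did not pass (95% interval −0.88 to 0.11, limma adjusted p = 0.382). Mxd1, the founding member of the family, had −3.69 and −3.74 in knock-down samples, both between the control values of −3.51 and −4.16. Its change was 0.12 (adjusted p = 0.860), and its direction turned without control 2 (−0.21).

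Mxd3, the family member tied to proliferating cells, was read by 2 probes. Probe A_51_P315530 had 0.17 and 0.22 in knock-down samples, inside the controls at 0.68 and 0.09. Probe A_52_P190647 had −0.08 in both knock-down samples, again inside the controls at 0.45 and −0.10. The probes shared the pattern of a high control 1, and neither change passed (−0.19, adjusted p = 0.747, and −0.25, adjusted p = 0.649). Without control 1 both changes were above 0 (0.11 and 0.02).

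Mnt, the broadly expressed repressor that opposes MYC in most cells, had 3.579 and 3.402 in knock-down samples, against 3.9998 and 3.478 in controls. The groups overlapped and the change of −0.25 did not pass (95% interval −0.81 to 0.32, limma adjusted p = 0.656). Its direction turned without control 1 (0.01). Mga, the large DNA-binding subunit of PRC1.6, had 0.06 and 0.09 in knock-down samples at probe A_51_P193270, against 0.07 and 0.13 in controls. At probe A_52_P189030 it had −0.02 and 0.07 in knock-down samples, against −0.22 and 0.13 in controls. Both changes were close to 0 (−0.03 with a 95% interval of −0.52 to 0.47, and 0.07 with −0.46 to 0.59), and both groups overlapped. The third Mga probe, A_52_P474871, lay between −7.87 and −7.63 on the 4 arrays and was not well above background.

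**Figure D3:**
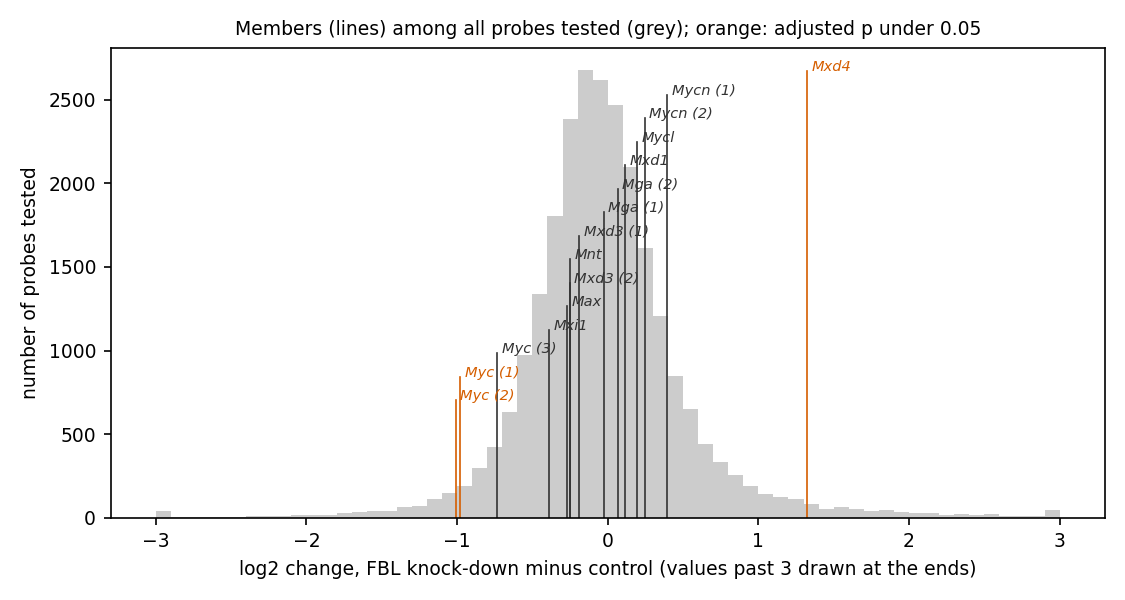
Distribution of the log2 change over the 25101 probes tested in grey, with the 15 member probes as lines whose height only separates the labels and those with an adjusted p under 0.05 in orange. Mxd4 lies in the upper tail and the Myc probes in the lower one, and the other 11 probes lie between −0.39 and 0.40.

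By role, the 6 probes of the MYC proteins held 2 that fell and 0 that rose, the MAX probe and the 3 tested probes of MNT and MGA held none that passed, and the 5 of the MXD repressors held 1 that rose and 0 that fell. Among 17182 other named probes that were well above background on every array, the values nearest to those of Mxd4, after centring each probe on its mean over the 4 arrays, were those of Camsap3, Pink1 and Lrrc3. Their Euclidean distances from Mxd4 were 0.07, 0.07 and 0.09 log2 units over the 4 arrays. Their changes were 1.28, 1.30 and 1.41 (0.30 for Lrrc3 under normexp), and their controls lay apart as those of Mxd4 did. This likeness follows from choosing the genes by these same values.

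Genes that work with the network were described by the brightest tested probe of each, a level at which 6.36% of 19352 genes (and accessions without a gene name) passed, 3.83% upwards and 2.53% downwards, with a median change of −0.06. At that level the groups did not overlap for 20.9% with the knock-down samples above and 30.3% below. An unadjusted p under 0.05 was found for 20.2% of these genes, and 55.8% of the changes were below 0. Of 12 coactivators of MYC none passed in limma, 2 had an unadjusted p under 0.05, 2 lay above the controls and 6 below without overlap, and the median change was −0.11. The brightest were Ruvbl1 and Ruvbl2, the paired helicases of the TIP60 complex. Ruvbl1 had a change of −0.65 (adjusted p = 0.165), with a call without control 2 (−0.84, adjusted p = 0.0382), and Ruvbl2 had −0.06. Of 14 tested subunits (of 15 listed) of the SIN3 corepressor, which the MXD proteins and MNT recruit, none passed (0 with an unadjusted p under 0.05, median −0.15), with changes of −0.32 for the histone-binding Rbbp4 and −0.13 for Sap18.

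Of 21 tested genes (of 22 listed) that act on the stability of MYC protein none passed (2 with an unadjusted p under 0.05, median −0.07), and the brightest, the mitotic kinases Plk1 and Aurka, had changes of −0.21 and −0.04. Of 12 tested partners (of 13 listed) of MGA in PRC1.6 none passed (1 with an unadjusted p under 0.05, median −0.20), with −0.42 for the heterochromatin protein gene Cbx3 and −0.63 for Wdr5, which presents histone H3 tails and is also a MYC cofactor (adjusted p = 0.154). Wdr5 passed without control 2 (adjusted p = 0.0387) and with trend and robust (0.0454). Of 3 tested genes (of 4 listed) from the parallel MLX branch and MIZ1 none passed (1 with an unadjusted p under 0.05, median 0.23). Changes were −0.31 for Mlx and 0.23 for Zbtb17, which encodes MIZ1. The 1 with an unadjusted p under 0.05 was Mlxipl, which lay above the controls without overlap (0.67, limma adjusted p = 0.120).

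Targets of the network were read by kind. Of 41 tested genes (of 45 listed) that MYC commonly activates none passed in limma, 6 had an unadjusted p under 0.05, 3 lay above the controls and 16 below without overlap, and 29 of the 41 changes were below 0, with a median of −0.12. The brightest were Odc1, the first enzyme of polyamine synthesis, with a change of 0.04, and Ldha, lactate dehydrogenase, with −0.10. Among 16 tested germline genes (of 21 listed) that MGA and PRC1.6 repress, 6 lay above the controls and 5 below without overlap (median 0.19). An unadjusted p under 0.05 in limma was found for 4 of the 16. Stra8 and Sycp3 changed by −0.90 and −0.77 and did not pass, while 10 of the 16 changes were above 0. After adjustment 1 gene rose and none fell. That was Hormad1, a protein of the meiotic chromosome axis, with −2.09 and −1.98 in knock-down samples, against −3.74 and −3.11 in controls, a 2.62-fold rise (1.39 ± 0.26 SE, limma adjusted p = 0.0130). Its change was 0.84 under normexp, and its call ended with the slide as a block (1.34, adjusted p = 0.101).

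Of 10 genes listed as repressed targets of MYC and MIZ1, 3 lay above the controls and 2 below without overlap, with a median change of −0.01. An unadjusted p under 0.05 in limma was found for 3, among them Ndrg2 (−0.54), which did not pass. After adjustment 2 genes rose and none fell. Both encode inhibitors of cyclin-dependent kinases. Cdkn2b, p15, had 1.82 and 1.75 in knock-down samples, against −0.73 and −0.85 in controls, and rose 5.95-fold (2.57 ± 0.22 SE, limma adjusted p = 2.74e-04). It passed in every alternative but the one with no filter on dim probes. Cdkn1a, p21, which is also a p53 target, had 2.326 and 2.322 in knock-down samples, against 1.597 and 1.072 in controls. It rose 1.99-fold (0.99 ± 0.25 SE, limma adjusted p = 0.0479), and its call ended with the slide as a block (adjusted p = 0.479) and without knock-down 1 (0.373). The other inhibitors of the list, Cdkn1b (0.36) and Cdkn1c (0.12), did not pass.

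Of 6 targets of MondoA and ChREBP, the partners of MLX, 1 rose and none fell (median 0.08). Txnip, which binds thioredoxin and limits glucose uptake, had 2.87 and 2.79 in knock-down samples, against 1.41 and 1.21 in controls, and rose 2.86-fold (1.52 ± 0.23 SE, limma adjusted p = 0.00367). Arrdc4, a relative of Txnip under the same regulators, had a change of 0.05. Hk2, also on the list of genes that MYC activates, changed by −0.79 and did not pass (limma adjusted p = 0.0800). Of the 6 changes 4 were above 0.

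**Figure D4:**
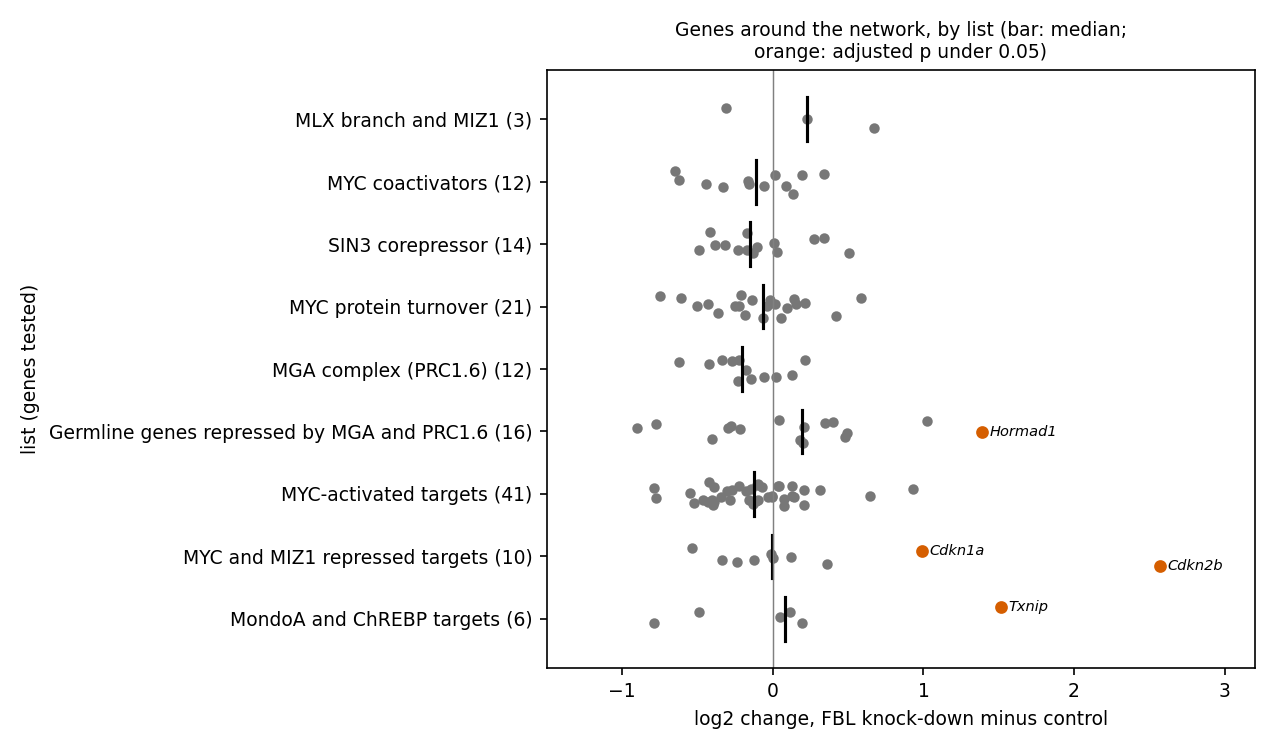
Log2 change, knock-down minus control, of the brightest tested probe of each gene by list, with the number of genes tested in brackets, a bar at the median and genes with an adjusted p under 0.05 in orange. The only called genes are Hormad1, Cdkn2b, Cdkn1a and Txnip, all above 0, and the medians of the 9 lists lie between −0.20 and 0.23.

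**Figure D5:**
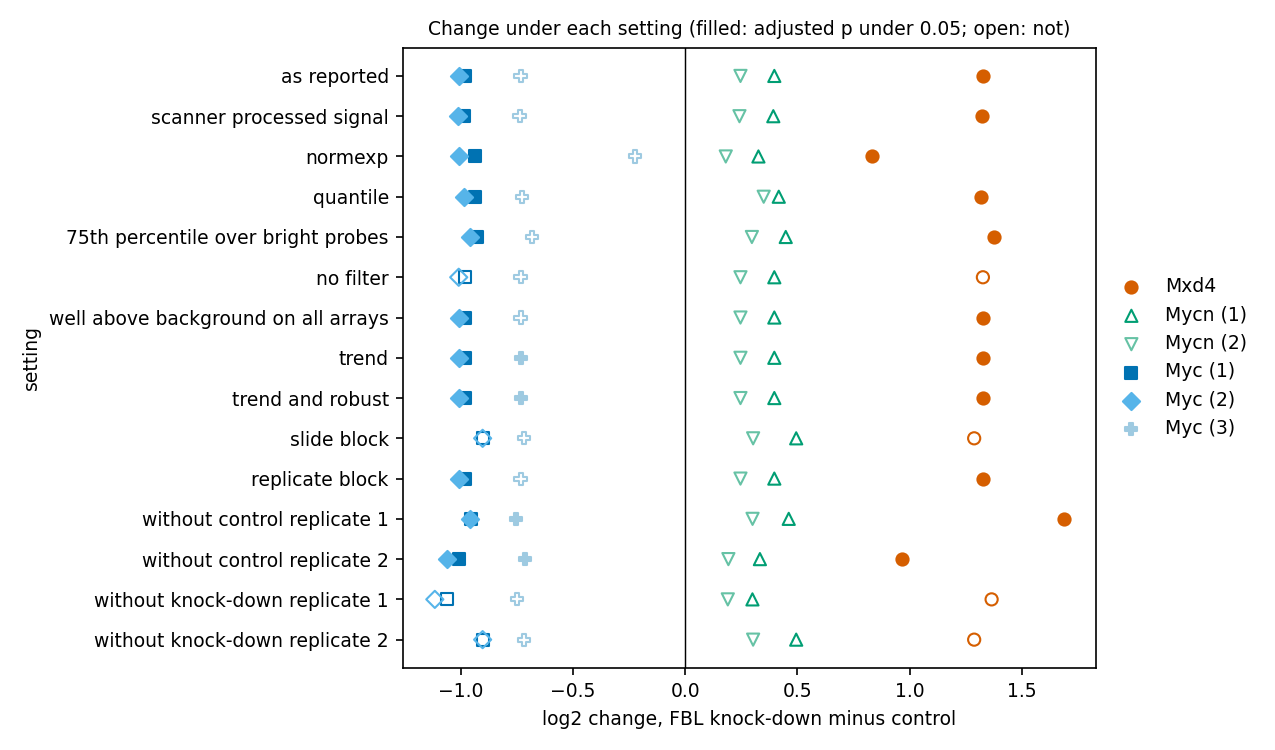
Log2 change of the Mxd4, Mycn and Myc probes as reported and under 14 alternative settings, with filled marks for an adjusted p under 0.05 and open marks otherwise. Each probe keeps its sign in every setting, and the marks of Mxd4 and the first and second Myc probe open with no filter, with the slide as a block and without either knock-down array.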

How the data were processed

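The members, gene lists and tests were chosen with earlier results of these data known. Per the file headers, Agilent Feature Extraction 10.7.3.1 read the images, and the deposited intensity of a spot is background-subtracted and detrended without scaling between arrays. The value table deposited by the authors holds log2 values: for 41174 probes, 99.9% of entries per array came within 0.01 of the log2 processed intensity less 1 constant per array. Its column medians were −3.94 and −3.91 in knock-down samples and −3.85 and −3.98 in controls, so probes were not centred and the direction is that of the signal. No source used here names the software that made it.

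Flags for signal well above background came from the scanner files. The test took the 25101 probes with this flag on both arrays of a group or more, on the value table by probe, with limma 3.58.1 in R 4.3.3 (lmFit and eBayes, two-sided, threshold 0.05 on the Benjamini-Hochberg adjusted p). Names came from unversioned RefSeq accessions in the GRCm38.p6 gene table, which named 24375 probes. No spot was saturated. The scanner files used hold no mean signal, so normexp (offset 50) used median signals. Named genes are the members, Fbl, up to 3 called genes per direction of each list, or its 2 brightest where none passed, and the 3 genes nearest to the most changed member. Cdkn1b, Cdkn1c, Arrdc4, Stra8, Sycp3, Ndrg2, Hk2 and Mlxipl were added after their values were seen. So were marker sums without the brightest marker and the changes of Pou5f1, Nanog and Sox2. Precision is limited by the 4 arrays. The test was checked on simulated data, and a p that misses the threshold does not show that levels were alike.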

Additional observations from a re-analysis of the deposited data

How the results depend on the processing

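The 2 called Myc probes and Mxd4 kept their direction under all 14 alternatives by probe and their call under 10. The fits with the slide as a block and without knock-down 2 make the same comparison and are counted separately among the alternatives. Of the 3 member calls (1 higher, 2 lower), 0 were left (0 higher, 0 lower) with no filter on dim probes and with the slide as a block, and 2 (1 higher, 1 lower) by the brightest probe or the mean of probes per gene, where Myc counts as 1 gene. Leaving out 1 array gave 0 to 4 member calls (0 to 1 higher, 0 to 3 lower), 0 without either knock-down array. With no filter the adjusted p was 0.314 and 0.308 for Myc and 0.295 for Mxd4. Under normexp, with a slide or replicate block and without either knock-down array, limma gave all probes 1 shared error. In these fits the adjusted p follows the size of the change and not the spread of the probe itself.

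Over all probes, 1525 calls (916 higher, 609 lower) became 0 (0 higher, 0 lower) with no filter, where 3857 had an unadjusted p under 0.05, and 680 (450 higher, 230 lower) with the slide as a block. They became 2635 (1452 higher, 1183 lower) with trend and robust, and 982 were lower with trend alone. Leaving out 1 array gave 680 to 5324 (450 to 2976 higher, 230 to 2348 lower), the most without control 1, where the spread comes from the knock-down pair alone. In the fit with a replicate block 997 were lower, and Myc (adjusted p = 0.0180, 0.0135 and 0.127) and Mxd4 (3.42e-04) kept their side of the threshold. Deviations of same-numbered arrays had a correlation of 0.02, so the numbers were not taken to pair the samples.

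The third Myc probe passed under trend alone (adjusted p = 0.0418), under trend and robust (0.0358), and without control 1 (0.0316) or 2 (0.0412). Besides Elf5, which had been called, the changes that turned direction were uncalled. They were Mga probe A_51_P193270 (0.024) and Aurka (0.010) under the 75th percentile of bright probes, Ruvbl2 (0.039) and Aurka (0.045) under quantile normalization, and Odc1 (−0.028) with the slide as a block. Leaving out 1 array gave −0.21 to 0.44 for Mxd1, −0.49 to 0.11 and −0.53 to 0.022 for Mxd3, −0.51 to 0.013 for Mnt, and −0.058 to 0.0047 and −0.11 to 0.25 for Mga. It gave −0.36 to 0.24 for Ruvbl2, −0.30 to 0.041 for Sap18, −0.49 to 0.061 for Plk1, −0.21 to 0.13 for Aurka, −0.35 to 0.15 for Ldha, −0.047 to 0.50 for Zbtb17, −0.17 to 0.25 for Odc1, −0.069 to 0.31 for Cdkn1c and −0.13 to 0.22 for Arrdc4. Elf5 turned to 0.12 under normexp, against −1.63 as reported. The cause was not tested.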

Other observations

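Genes that mark cell states were counted beside the network. Over all genes, by the brightest tested probe of each, 3.83% rose and 2.53% fell. Without overlap 20.9% lay above the controls and 30.3% below, and 20.2% had an unadjusted p under 0.05 in limma. Of 6 fibroblast and 6 neural progenitor markers tested none passed in limma, with 1 of each at an unadjusted p under 0.05. Among 11 ES cell markers 2 fell and none rose. Tfcp2l1, a self-renewal factor downstream of LIF, had 2.77 and 2.69 in knock-down samples, against 3.52 and 3.85 in controls (−0.95 ± 0.23 SE, limma adjusted p = 0.0422). Tbx3, another regulator of self-renewal, changed by −0.89 (adjusted p = 0.0464). Both calls ended under quantile normalization (adjusted p = 0.0919 and 0.0784), without knock-down 1 (0.358 and 0.457) and without knock-down 2 (0.624 and 0.745).

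Among 10 tested primitive endoderm markers 2 fell and none rose, while 4 lay below the controls and 2 above without overlap. The median change was −0.17, and 4 of the 10 changes were above 0. Sox7, an endoderm transcription factor, had −5.39 and −5.35 in knock-down samples, against −3.22 and −3.21 in controls (−2.15 ± 0.22 SE, adjusted p = 5.50e-04), and its change was −0.21 under normexp (adjusted p = 0.760). Lama1, a laminin chain of the basement membrane, changed by −1.01 (adjusted p = 0.0266), with no call without knock-down 1 (0.331) or knock-down 2 (0.468). Of 8 tested early mesoderm markers 1 rose and none fell, while 4 lay below the controls and 2 above, with a median change of −0.19. The one that rose was Kdr, a VEGF receptor, with a change of 1.19 (adjusted p = 0.0123), and its call ended without knock-down 1 (0.196) or knock-down 2 (0.177). Mesp1 and Evx1 had changes of −0.60 and −0.61 and did not pass. Evx1 and T, both among those below the controls, entered the test through the controls. Each had 1 knock-down array well above background, so no fall is drawn from them.

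Of 9 tested trophectoderm markers 4 lay above the controls and 3 below, with a median change of 0.13. The 4 above were Cdx2 (0.83), Tfap2c (0.82), Gata3 (0.77) and Hand1 (0.71), and none of them passed. The 1 marker past the threshold was Elf5 (−1.63, adjusted p = 0.0248). It entered the test through the controls, with 1 knock-down array well above background, and its change was 0.12 under normexp and passed under 5 of 13 alternatives, so no fall is drawn from it. Mesp1, Evx1, T, Cdx2, Tfap2c, Gata3 and Hand1 were chosen after their values were seen.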
